A study of Caenorhabditis elegans with 6 samples.

Results

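The genes described here are 40 genes of meiotic chromosome pairing, synapsis and recombination in the nematode Caenorhabditis elegans. They were taken from a list of names and sorted by textbook role into 4 classes. These were the chromosome axis with its cohesins (8 genes), the synaptonemal complex (5 genes), chromosome pairing (8 genes) and recombination (19 genes). The list and the classes were chosen with earlier results of these data known. In the count table of 46589 genes, 37 of the 40 were found by symbol. The other 3, dsb-1 (F08G5.1), dsb-2 (F26H11.6) and rec-1 (Y18H1A.7), were listed under sequence names and were found through their RefSeq symbols. All 40 had enough reads to be among the 16391 genes tested. RNA came from whole adults of the Bristol N2 wild type, 5 days after the L4 larval stage. The study fed worms bacteria carrying double-stranded RNA against bcat-1, the branched-chain amino acid transferase, and measured 3 libraries labelled bcat-1 RNAi and 3 labelled control. No allele or transgene is named in the labels of either group. The labels say nothing more of the control treatment. Nor do they state that each library came from its own culture, so p-values here speak only of the spread among these 6 samples, and that spread may be technical. Replicate numbers are not in the labels and follow the order of the samples.

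Meiosis makes gametes with a single set of chromosomes, and for this each chromosome must find its partner, be zipped to it and exchange DNA with it. In the worm, zinc finger proteins bound near one end of each chromosome, the pairing centre, link chromosomes through the nuclear envelope to the cytoskeleton, which moves them about. A protein axis then forms along each chromosome, the synaptonemal complex joins paired axes, and programmed DNA breaks are repaired with the partner as template so that a crossover holds the pair together. These proteins are made in germ cells, and hermaphrodite germ cells keep entering meiosis in young adults. The RNA measured here came from the whole animal.

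Libraries held 38347771 to 44137496 counted reads in the bcat-1 RNAi group and 32784443 to 43274827 in the controls, and each of the 40 genes had 276 to 11245 reads per library. The target itself was not called lower. In counts per 1000000 reads (CPM), transcripts of bcat-1 (K02A4.1) stood at 223, 102 and 287 in the group labelled bcat-1 RNAi, against 135, 135 and 162 in the controls, a log2 fold change of 0.50 ± 0.30 (SE; edgeR adjusted p = 0.169; exact permutation p = 0.4, where the smallest possible is 0.1). Without bcat-1 RNAi replicate 2 the log2 fold change was 0.79 (edgeR adjusted p = 0.00291). Since this goes against the label, the first group is called the RNAi-labelled libraries below, and every direction is that of these libraries. Whether labels were exchanged, or whether reads of the RNAi construct add to the bcat-1 count, was not tested. An exchange of labels would turn every direction given here. Differences between the groups were widespread: edgeR called 61.6% of all tested genes at an adjusted p under 0.05, with 36% higher and 25.6% lower, and the median log2 fold change of all tested genes was 0.15.

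Nearly all of the meiotic genes were lower in the RNAi-labelled libraries. Of the 40 genes, 39 fell (97.5%), against 25.6% of all tested genes, and none was higher. Among the 37 found by symbol 36 fell. The exception was spo-11, the enzyme that cuts DNA to start recombination, whose groups overlapped. The median log2 fold change was -0.48, equal to a level that fell by 28.4%, and single genes ranged from -0.88 to -0.21. Of the 40, 11 genes were called and at least 1.5-fold lower, against 10.5% of all tested genes. Values of the groups did not overlap for 39 of the 40, against 71.2% of all tested genes and 75% of those at like levels. Among the 6877 genes within the same range of mean level (12.1 to 249 CPM), 44.4% were lower and the median log2 fold change was -0.23, and among the 1962 genes between the quartiles of the meiotic genes' levels 55.6% were lower and the median was -0.30. In RNA from whole worms, fewer germ cells and less RNA per germ cell cannot be told apart.

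The size of these falls depended on how libraries were scaled, since the scaling moved the median of all genes from 0.02 with the size factors of DESeq2 to 0.40 with library size alone. The median of the meiotic genes stood -0.63 from that of all tested genes. A scaling shifts all genes of a library alike and so cannot move this difference by much, but the choice of genes or values can: it was -1.09 with no filter on low counts, -0.46 with at least 1 CPM in 3 libraries and -0.47 with log2(RPKM + 1). With library size alone 24 of the 40 were called lower and 39 had a log2 fold change below 0, the exception again being spo-11. In that fit 56.6% of all tested genes were called, and 21% of those calls were lower. In all 4 classes, each library labelled bcat-1 RNAi had a lower summed level than each control. The sum over the 40 genes was 3301, 3372 and 2996 CPM in the RNAi-labelled libraries, against 4400, 5059 and 4392 CPM in the controls.

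**Figure D1:**
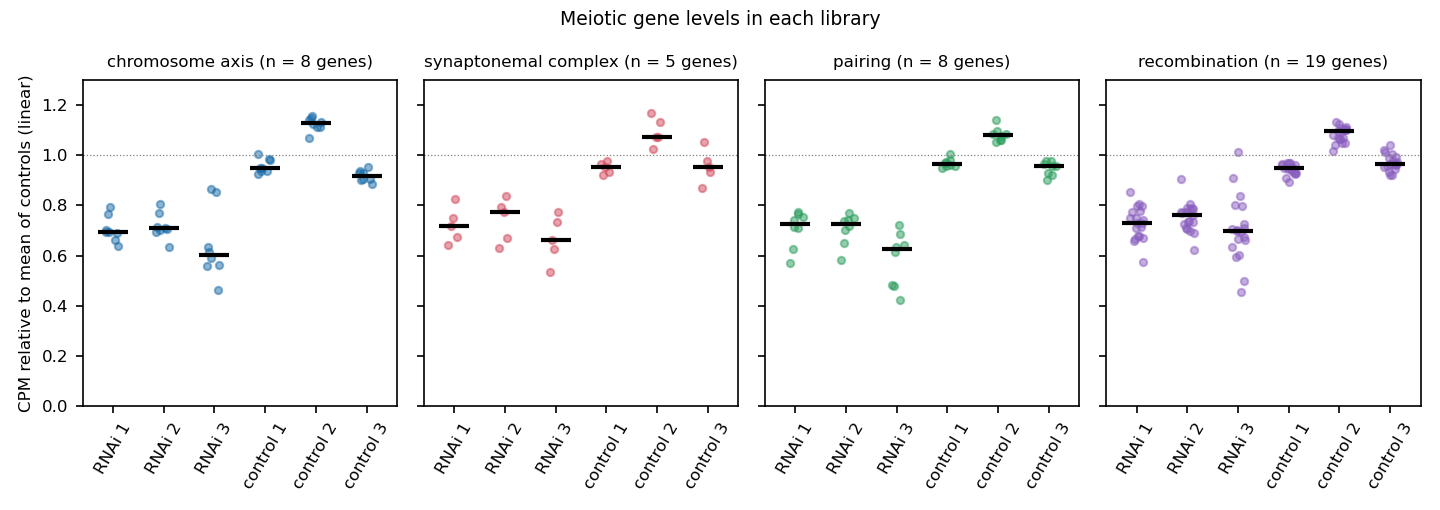
Level of each of the 40 genes in each library, as CPM divided by the mean of the 3 controls on a linear axis, with 1 panel per class, 1 point per gene and a black bar at the class median. Apart from spo-11 in bcat-1 RNAi replicate 3 the RNAi-labelled points lie below 1, with the widest spread in replicate 3, and control replicate 2 has the highest class median in every panel.

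Transcripts of the axis proteins all fell. Of the 5, 4 share the HORMA domain, a fold that closes around a peptide of a partner protein: htp-3 is the scaffold on which him-3, htp-1 and htp-2 assemble. The scaffold gene htp-3 (F57C9.5) averaged 127 ± 12.3 CPM in the RNAi-labelled libraries and 192 ± 26.0 CPM in the controls (SD, n = 3 each), a log2 fold change of -0.60. Its partner htp-1 (F41H10.10) fell most in this class, with 91.2, 90.4 and 80.3 CPM in the RNAi-labelled libraries, against 140.03, 162 and 126 CPM in the controls. The groups were well apart, with a log2 fold change of -0.71 ± 0.11 (SE; edgeR adjusted p = 0.000711). The close copy htp-2 (Y73B6BL.2) had 66.0, 66.9 and 59.6 CPM in the RNAi-labelled libraries, against 86.7, 107 and 88.1 CPM in the controls, and fell by 0.55 on the log2 scale. Per exon length, htp-1 stood at 1.38 to 1.41 times htp-2 in the RNAi-labelled libraries, against 1.47 to 1.65 times in the controls, so the ratio was lower in each RNAi-labelled library. Reads common to both copies were dropped by the authors' unique mapping, so the levels of this pair are uncertain.

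The gene him-3 (ZK381.1) fell least in its class. It had 129, 130.3 and 139.97 CPM in the RNAi-labelled libraries, against 153, 182 and 150.2 CPM in the controls, with a log2 fold change of -0.28 ± 0.10 (SE; edgeR adjusted p = 0.0347). The groups did not overlap but the nearest values were close, and the call was lost without control replicate 2 (edgeR adjusted p = 0.0766), without bcat-1 RNAi replicate 1 (0.0822) or without bcat-1 RNAi replicate 2 (0.0643). The gene lab-1 (C03D6.6) protects cohesion on part of each chromosome until the second division. Its levels were 44.2, 47.4 and 57.0 CPM in the RNAi-labelled libraries, against 62.4, 74.2 and 63.5 CPM in the controls, with bcat-1 RNAi replicate 3 nearest to the controls. It fell by 0.43 on the log2 scale (edgeR adjusted p = 0.0136), and lost its call by a small margin without control replicate 2 (adjusted p = 0.0502).

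Meiotic cohesin rings are closed by one of 3 kleisin subunits, rec-8, coh-3 or coh-4, and all 3 genes fell. The widest spread was in rec-8 (W02A2.6), with 92.2, 94.8 and 62.0 CPM in the RNAi-labelled libraries, against 132, 149 and 121 CPM in the controls. Its log2 fold change was -0.69 ± 0.16 (SE; edgeR adjusted p = 0.00526), and replicate 3 was far below the other RNAi-labelled libraries. The near-identical pair coh-3 (F08H9.1) and coh-4 (Y45G5AM.8) act together. Levels of coh-3 were 76.9, 77.3 and 61.5 CPM in the RNAi-labelled libraries, against 95.4, 115.3 and 90.4 CPM in the controls. Levels of coh-4 were 35.6, 35.6 and 28.6 CPM in the RNAi-labelled libraries, against 51.5, 54.8 and 47.7 CPM in the controls. Both pairs of groups were apart, with log2 fold changes of -0.48 for coh-3 and -0.63 for coh-4. Per exon length coh-3 was 2.13 to 2.15 times coh-4 in the RNAi-labelled libraries, against 1.84 to 2.09 times in the controls. These copies also lose shared reads, and 327 exon bases of coh-4 lie in another gene on the same strand.

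All 4 central proteins of the synaptonemal complex that were listed, syp-1 to syp-4, had lower RNA, as did pch-2. The largest fall was that of syp-4 (H27M09.3), with 149, 146 and 124 CPM in the RNAi-labelled libraries, against 224, 271 and 202 CPM in the controls. Its groups were far apart, with a log2 fold change of -0.73 ± 0.13 (SE; edgeR adjusted p = 0.00125). For syp-2 (C24G6.1) the levels were 63.5, 62.9 and 73.0 CPM in the RNAi-labelled libraries, against 87.9, 107 and 87.8 CPM in the controls. Here bcat-1 RNAi replicate 3 was the highest of its group, and the log2 fold change was -0.50. For syp-1 (F26D2.2) they were 76.9, 84.9 and 71.0 CPM in the RNAi-labelled libraries, against 98.9, 109.7 and 112.9 CPM in the controls, and the log2 fold change was -0.47. Of its exon bases, 517 are shared with a gene on the same strand.

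The lowest of these genes per exon length was syp-3 (F39H2.4), with 24.7, 25.1 and 21.9 CPM in the RNAi-labelled libraries, against 29.3, 32.1 and 28.5 CPM in the controls. It had the smallest fall of the class, -0.32 ± 0.11 (SE; edgeR adjusted p = 0.0278), and the call was lost without control replicate 2 (adjusted p = 0.0676) or bcat-1 RNAi replicate 1 (adjusted p = 0.0618). The ratios of syp-1, syp-3 and syp-4 to syp-2 overlapped between the groups. The ATPase pch-2 (F10B5.5), which remodels HORMA domain proteins and slows synapsis, averaged 93.2 ± 10.3 CPM in the RNAi-labelled libraries and 130.1 ± 8.12 CPM in the controls (SD, n = 3 each), with a log2 fold change of -0.48.

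Pairing centres are bound by 4 related zinc finger proteins whose genes lie side by side. Each serves its own chromosomes: him-8 the X, zim-1 chromosomes II and III, zim-2 chromosome V and zim-3 chromosomes I and IV. On the plus strand of chromosome IV they ran in the order zim-1 (10547086 to 10555513), zim-2 (10555247 to 10558225), zim-3 (10558715 to 10561429) and him-8 (10561905 to 10563974), within 16.9 kb (WBcel235, Ensembl annotation). The first pair overlapped by 223 exon bases on one strand, so some reads of zim-1 and zim-2 could not be assigned to one of them.

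The 4 genes moved alike. Transcripts of him-8 (T07G12.12) were at 52.6, 52.3 and 46.7 CPM in the RNAi-labelled libraries, against 66.9, 72.1 and 65.3 CPM in the controls. Those of zim-1 (T07G12.6) were at 72.4, 71.5 and 64.6 CPM in the RNAi-labelled libraries, against 98.8, 112 and 94.5 CPM in the controls. In both genes the groups were apart and bcat-1 RNAi replicate 3 was lowest. Levels of zim-2 (T07G12.10) were 65.9, 69.1 and 67.1 CPM in the RNAi-labelled libraries, against 89.5, 98.8 and 90.8 CPM in the controls. Levels of zim-3 (T07G12.11) were 52.5, 52.3 and 44.8 CPM in the RNAi-labelled libraries, against 66.9, 75.6 and 66.8 CPM in the controls. The log2 fold changes spanned a narrow range, with -0.43 for him-8, -0.47 for zim-2, -0.48 for zim-3 and -0.55 for zim-1, and edgeR adjusted p-values between 0.00152 for zim-1 and 0.00424 for him-8. Per exon length zim-1 stood at 0.870 to 0.883 times him-8 in the RNAi-labelled libraries, against 0.923 to 0.987 times in the controls. For zim-2 the ratio to him-8 overlapped between the groups. For zim-3 it was 0.637 to 0.663 in the RNAi-labelled libraries and 0.663 to 0.696 in the controls, which nearly touch.

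A protein bridge of sun-1 in the inner and zyg-12 in the outer nuclear membrane joins chromosome ends to microtubule motors. The largest fall among the 40 genes was that of sun-1 (F57B1.2, chromosome V, 13191700 to 13193538), with 101, 103 and 85.1 CPM in the RNAi-labelled libraries, against 168, 191 and 171 CPM in the controls. Its groups were the farthest apart on the log2 scale, at -0.88 ± 0.11 (SE; edgeR adjusted p = 0.000156). Its partner zyg-12 (ZK546.1), which also holds the centrosome to the nucleus, had 154, 161 and 118 CPM in the RNAi-labelled libraries, against 239, 259.8 and 241 CPM in the controls, and fell by 0.77 (edgeR adjusted p = 0.000789). The ratio of sun-1 to zyg-12 per exon length overlapped between the groups.

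Among the kinases, plk-2 (Y71F9B.7), a polo-like kinase that gathers at pairing centres, averaged 129.6 ± 13.6 CPM in the RNAi-labelled libraries and 186 ± 23.2 CPM in the controls (SD, n = 3 each), with a log2 fold change of -0.52. The kinase chk-2 (Y60A3A.12), a switch for pairing and break formation at meiotic entry, was the lowest of the 40 genes per exon length. It had 11.3, 10.7 and 6.26 CPM in the RNAi-labelled libraries, against 14.9, 15.97 and 13.7 CPM in the controls, with bcat-1 RNAi replicate 3 far below the rest. Its log2 fold change was the least precise of the 40, at -0.66 ± 0.21 (SE; edgeR adjusted p = 0.023), and the call was lost without control replicate 2 (adjusted p = 0.0839).

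**Figure D2:**
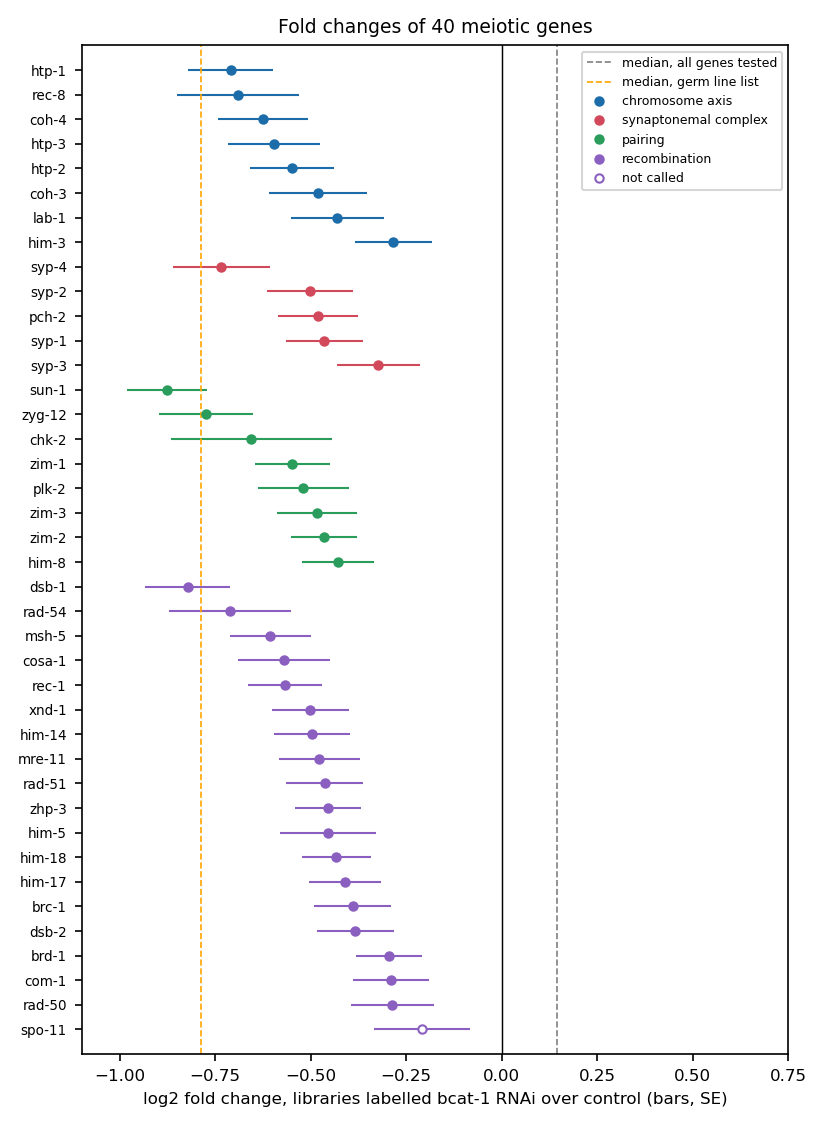
Log2 fold change of the 40 genes, RNAi-labelled libraries over controls, with bars of 1 SE, sorted within each class. Filled points were called lower and the open point, spo-11, was not and lies above 0 with library size alone. The points range from -0.88 to -0.21, between the median of a germ line gene list at -0.79 (orange, passed by sun-1 and dsb-1) and that of all tested genes at 0.15 (grey).

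Break formation held both the gene that was not called and the second largest fall. The cutting enzyme itself, spo-11 (T05E11.4, chromosome IV, 11123133 to 11124862), had 55.2, 54.6 and 70.1 CPM in the RNAi-labelled libraries, against 61.8, 74.0 and 72.3 CPM in the controls. One RNAi-labelled library, replicate 3, lay among the controls, and the log2 fold change was -0.21 ± 0.13 (SE; edgeR adjusted p = 0.171). Without replicate 3 it was -0.31 and called lower (edgeR adjusted p = 0.0154). With library size alone it was 0.05 and not called. Breaks also need dsb-1 and dsb-2, a pair of related proteins that mark nuclei competent for cutting. Levels of dsb-1 (F08G5.1, chromosome IV, 12408925 to 12410470) were 65.3, 70.6 and 56.7 CPM in the RNAi-labelled libraries, against 105, 126 and 109.6 CPM in the controls. This gene fell by 0.82 on the log2 scale (SE 0.11; edgeR adjusted p = 0.000329), with the groups far apart.

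The related dsb-2 (F26H11.6) fell less, with 52.6, 58.4 and 58.9 CPM in the RNAi-labelled libraries, against 70.1, 81.6 and 69.98 CPM in the controls, a log2 fold change of -0.38. The ratio of dsb-1 to dsb-2 per exon length was 0.865, 0.842 and 0.670 in the RNAi-labelled libraries, against 1.05, 1.07 and 1.09 in the controls. In the controls dsb-1 was thus the higher of the pair and in each RNAi-labelled library it was the lower. With 3 libraries against 3, an exact permutation test of such a ratio cannot go below p = 0.1.

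Other break factors act through chromatin or on single chromosomes. The most abundant in the recombination class per exon length was xnd-1 (C05D2.5), a chromatin protein that shapes where crossovers fall, with 207, 206 and 205 CPM in the RNAi-labelled libraries, against 279, 329 and 268 CPM in the controls. The RNAi-labelled values were nearly equal, and the log2 fold change was -0.50 ± 0.10 (SE; edgeR adjusted p = 0.00264). The X chromosome break factor him-5 (D1086.4) averaged 24.3 ± 2.42 CPM in the RNAi-labelled libraries and 33.3 ± 3.93 CPM in the controls, and its relative rec-1 (Y18H1A.7) averaged 42.8 ± 0.870 CPM in the RNAi-labelled libraries and 63.4 ± 5.59 CPM in the controls (SD, n = 3 each). Their log2 fold changes were -0.46 for him-5 and -0.57 for rec-1. The chromatin factor him-17 (T09E8.2), needed for breaks and for histone methylation in the germ line, had a log2 fold change of -0.41.

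Genes that process breaks and carry out strand exchange all fell, by the smallest median of any group of roles, -0.39 on the log2 scale. The nuclease mre-11 (ZC302.1) had 152, 157 and 128 CPM in the RNAi-labelled libraries, against 195, 219 and 193 CPM in the controls, and fell by 0.48. Its partner rad-50 (T04H1.4) had 191, 203 and 158 CPM in the RNAi-labelled libraries, against 216, 228 and 229.5 CPM in the controls. This was the weakest call of the 39, with a log2 fold change of -0.29 ± 0.11 (SE; edgeR adjusted p = 0.0435). It was lost without any one control library (adjusted p = 0.0623, 0.0896 and 0.0974 without replicates 1, 2 and 3) or without bcat-1 RNAi replicate 1 (0.0929). Per exon length mre-11 was 1.33 to 1.399 times rad-50 in the RNAi-labelled libraries, against 1.45 to 1.65 times in the controls.

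The end resection factor com-1 (C44B9.5) had 66.6, 66.0 and 77.9 CPM in the RNAi-labelled libraries, against 81.3, 89.4 and 86.8 CPM in the controls. The groups were apart by little, with a log2 fold change of -0.29 (edgeR adjusted p = 0.0294), and the call was lost without control replicate 2 (adjusted p = 0.0683) or 3 (0.0670) and without bcat-1 RNAi replicate 1 (0.0743) or 2 (0.0671). The recombinase rad-51 (Y43C5A.6), which coats the broken end and searches for the partner, was at 101, 103.7 and 91.4 CPM in the RNAi-labelled libraries, against 126, 151 and 131 CPM in the controls, and fell by 0.46. The motor rad-54 (W06D4.6), which helps remove rad-51 protein from DNA, fell more. It was at 49.8, 51.4 and 33.4 CPM in the RNAi-labelled libraries, against 68.9, 80.6 and 71.0 CPM in the controls, with replicate 3 low and a log2 fold change of -0.71 ± 0.16 (SE; edgeR adjusted p = 0.00448). Per exon length rad-51 was 3.56, 3.55 and 4.81 times rad-54 in the RNAi-labelled libraries, against 3.21 to 3.31 times in the controls.

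The ubiquitin ligase of brc-1 and brd-1, the worm forms of BRCA1 and BARD1, acts in break repair, mainly from the sister chromatid. Levels of brc-1 (C36A4.8) were 59.5, 58.7 and 52.9 CPM in the RNAi-labelled libraries, against 69.9, 82.2 and 72.2 CPM in the controls. Levels of brd-1 (K04C2.4) were 67.6, 67.9 and 70.4 CPM in the RNAi-labelled libraries, against 79.6, 88.4 and 84.5 CPM in the controls. Both fell without overlap, by -0.39 for brc-1 and -0.29 for brd-1 on the log2 scale, and their ratio per exon length overlapped between the groups.

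The 5 crossover genes fell within a narrow range of log2 fold change, from -0.61 to -0.43. At the lower end stood msh-5 (F09E8.3), which with him-14 forms a clamp that stabilises crossover intermediates, with 56.2, 59.9 and 50.1 CPM in the RNAi-labelled libraries, against 81.8, 92.5 and 78.8 CPM in the controls. The groups were apart (log2 fold change -0.61 ± 0.11, SE; edgeR adjusted p = 0.00127). Its partner him-14 (ZK1127.11) had 30.7, 30.8 and 28.0 CPM in the RNAi-labelled libraries, against 40.7, 44.9 and 40.6 CPM in the controls, with the groups apart, although 154 of its exon bases lie opposite nos-2, a germ line gene, and reads of the pair cannot be told apart without strand. The gene cosa-1 (Y71H2AM.7), a cyclin-like marker of the sites that become crossovers, averaged 25.5 ± 2.56 CPM in the RNAi-labelled libraries and 37.9 ± 3.73 CPM in the controls (SD, n = 3 each), with 178 exon bases opposite another gene. Log2 fold changes were -0.50 for him-14 and -0.57 for cosa-1.

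The RING finger protein zhp-3 (K02B12.8), which gathers at crossover sites, averaged 53.3 ± 0.359 CPM in the RNAi-labelled libraries and 73.1 ± 3.33 CPM in the controls (SD, n = 3 each), a log2 fold change of -0.46. The nuclease scaffold him-18 (T04A8.15), which resolves joint molecules, had 96.1, 99.1 and 89.4 CPM in the RNAi-labelled libraries, against 121, 137 and 127 CPM in the controls. It had the highest mean RPKM of the crossover genes, overlapping with zhp-3, and fell by 0.43 with no overlap (edgeR adjusted p = 0.00306).

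By class, the median log2 fold change was -0.57 for the chromosome axis, -0.48 for the synaptonemal complex, -0.53 for pairing and -0.46 for recombination. The called and at least 1.5-fold lower genes were 4 of 8, 1 of 5, 3 of 8 and 3 of 19 in the same order. Within the pairing class the kinase and envelope genes had a median of -0.71 and the zinc finger genes -0.47, and within the axis class the cohesins had -0.63 and the other genes -0.55. These medians rest on 3 to 19 genes and no difference between classes was tested.

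Compared per exon length, as RPKM deposited by the authors, the 40 genes spanned a wide range. The axis gene him-3 was highest, with 129.5 ± 12.4 RPKM in the RNAi-labelled libraries and 132 ± 9.46 RPKM in the controls (SD, n = 3 each), and xnd-1 followed with 97.1 ± 4.26 RPKM in the RNAi-labelled libraries and 115.4 ± 8.56 RPKM in the controls. At the other end chk-2 had 6.06 ± 1.54 RPKM in the RNAi-labelled libraries and 8.10 ± 0.404 RPKM in the controls. The crossover clamp was next lowest, him-14 with 12.4 ± 0.189 and 14.7 ± 0.315 RPKM and msh-5 with 14.3 ± 0.815 and 18.3 ± 0.901 RPKM in the RNAi-labelled libraries and the controls. Among neighbours in the control order, values of the 3 controls were apart between him-3 and xnd-1, lab-1 and pch-2, syp-1 and him-18, rec-1 and brd-1, and between each step below cosa-1 (rad-54, coh-4, msh-5, him-14, chk-2). All other neighbours overlapped. By the means, 6 genes changed place by 5 or more. In the order of the RNAi-labelled libraries sun-1 was 12th (6th in the controls), dsb-1 18th (11th), rec-8 28th (22nd) and zyg-12 17th (12th), all farther down, while dsb-2 was 9th (15th in the controls) and spo-11 21st (26th), both farther up.

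**Figure D3:**
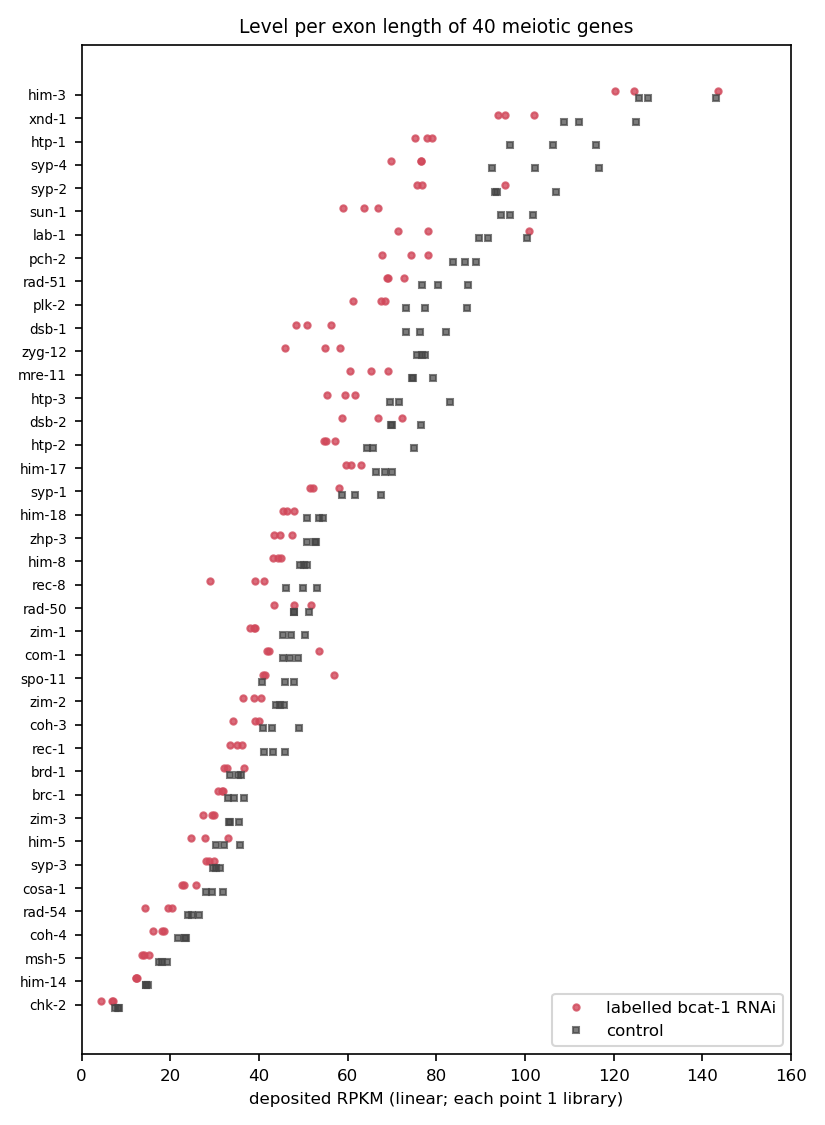
Deposited RPKM (reads per kilobase of exon and per 1000000 reads, linear axis) of the 40 genes, sorted by the control mean, with 1 point per library. RPKM is scaled by library total only, so differences are smaller than in CPM after TMM scaling: on this scale the groups were apart and lower in the RNAi-labelled libraries for 30 genes and overlapped for 10, him-3 and spo-11 among them. The share of all tested genes that were apart in RPKM was not counted. In CPM it was 71.2%, in either direction, so whether 30 of 40 is more than the share among other genes is not known.

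Without the TMM scaling that the CPM values carry, then, part of the separation was lost. Overlap in RPKM was counted for the 40 genes only, so whether other genes lost as much is not known. The 10 genes whose RPKM overlapped were him-3, lab-1, syp-2, syp-3, spo-11, dsb-2, him-5, rad-50, com-1 and brd-1. None of the 40 genes was higher in RPKM without overlap.

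Within each group a single library was the highest or the lowest for most of the 40 genes. Control replicate 2 was the highest control for 38 of the 40 and above the mean of the other controls for all 40, by a median of 0.20 on the log2 scale, against 0.09 for all tested genes in the same level range. It was above that mean for 4681 of the 6877 genes in the range. In the other group, bcat-1 RNAi replicate 3 was the lowest for 31 genes, with a median of -0.17 against the mean of replicates 1 and 2, where the level range had -0.08. Its deviations ran from -0.81 for chk-2 to 0.35 for spo-11. In it 8 of the 40 genes went up rather than down, beside 2668 of the 6877 genes in the level range. The 8 were him-3, lab-1, syp-2, spo-11, dsb-2, him-5, com-1 and brd-1. These 8 genes had a median exon length of 1029.5 bases, against 1962.5 bases for the 32 genes that were lower in it. Across the 40 genes Spearman's rho of this deviation with exon length was -0.49, and it was -0.44 across the 6877 genes of the level range, which are points of the same libraries and not replicates. The log2 fold change itself had a rho with exon length of -0.21 across the 40 genes, and 0.07 without bcat-1 RNAi replicate 3. All 40 genes were called lower without that library, at a median of -0.43, and 33 without control replicate 2. Of all tested genes 60.2% were called in the first of these fits, 44% of them lower. In the second 49.1% were called, 39.8% of them lower. The part of length or RNA quality in these values was not tested.

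**Figure D4:**
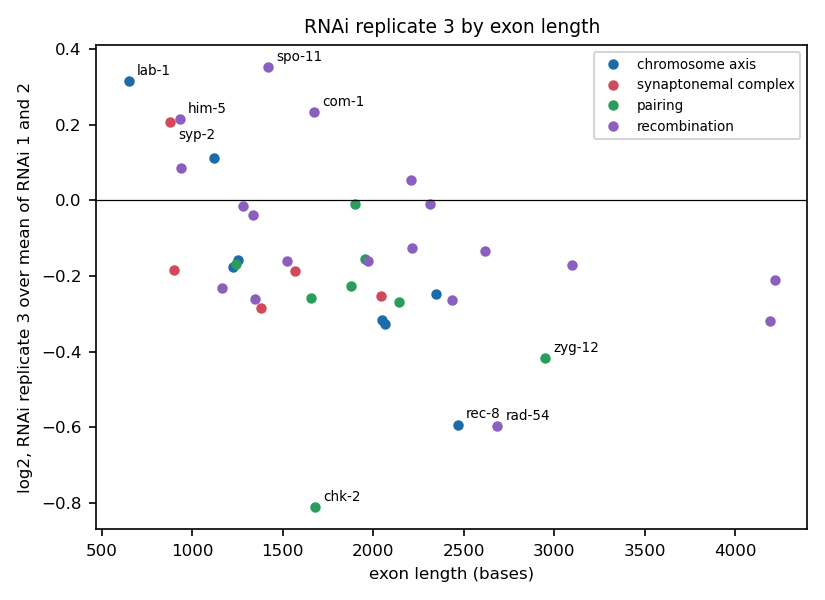
Deviation of bcat-1 RNAi replicate 3 from the mean of bcat-1 RNAi replicates 1 and 2 (log2, vertical) against exon length in bases (horizontal), 1 point per gene, coloured by class. The 8 genes above 0 are shorter in the median (1029.5 bases) than the 32 below (1962.5 bases), and chk-2 is lowest at -0.81.

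None of the 40 genes lies on the X chromosome, which carries 14.6% of tested genes with a known position and 12.7% of those in the level range. Chromosome IV carries 12 of the 40, V 10, I 8, III 6 and II 4. The level range was not uniform across chromosomes. On the X, 23.8% of its genes were lower and the median was 0.15 (log2). On the autosomes 45.7% to 50.04% were lower, with medians from -0.27 to -0.24. The share of 97.5% among the meiotic genes thus stands beside 45.7% to 50.04% on the autosomes at like levels.

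A list of other genes of meiosis and DNA repair had 48 names, of which 36 were found and tested. Of these, 25 were lower, 3 higher and 8 not called, with a median log2 fold change of -0.40. The list also holds genes of DNA repair by end joining, such as polq-1 and lig-4, so it is not made of meiosis genes alone. The largest falls were in prom-1 (-0.71), an F-box protein that promotes pairing and meiotic entry, wapl-1 (-0.62), which releases cohesin, and polq-1 (-0.59), a polymerase of end joining. The largest rises were in rfs-1 (0.44), a RAD-51 paralogue, atl-1 (0.35), a checkpoint kinase, and lig-4 (0.28), the ligase of end joining. For atl-1 the levels were 215, 200.4 and 222 CPM in the RNAi-labelled libraries, against 167, 168 and 163 CPM in the controls.

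Lists of other germ line genes had lower medians. The general list includes regulators of meiotic entry and progression such as gld-1, gld-2, nos-3, fbf-1 and fbf-2, so it is not independent of meiosis. It also holds puf-3 and puf-5, while the related puf-6 and puf-7 are in the oocyte and maternal list. The general list is therefore not fully separate from the oocyte and maternal list. Of 28 general germ line genes 27 were lower (median -0.79), of 24 oocyte and maternal genes 23 were lower (median -0.85), and of 28 genes of mitosis and DNA replication 25 were lower and none higher (median -0.67). Of the 40 meiotic genes 38 fell less than the germ line median, 39 less than the oocyte median and 33 less than the mitosis median. The exceptions beside the germ line median were sun-1 and dsb-1. Summed germ line levels were 5118 to 6847 CPM in the RNAi-labelled libraries and 10023 to 12020 CPM in the controls, with no listed gene at 0.

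Divided by that germ line sum, the summed meiotic genes stood at 0.482, 0.495 and 0.585 in the RNAi-labelled libraries, against 0.422, 0.421 and 0.438 in the controls. Divided by the oocyte and maternal sum they stood at 0.192, 0.201 and 0.193 in the RNAi-labelled libraries, against 0.152, 0.153 and 0.165 in the controls. Both ratios were higher in each RNAi-labelled library. Abundant genes weigh most in such a sum. In the germ line sum these were puf-5 and gld-1, with control means of 1456 and 1201 CPM and log2 fold changes of -0.87 and -1.08. A common divisor shifts all 40 genes of a library alike, so it says nothing of single genes. The highest ratio, 0.585 in bcat-1 RNAi replicate 3, came with a low germ line sum: 26 of the 28 germ line genes were below the mean of replicates 1 and 2 in that library, by a median of -0.40 (log2), against -0.17 for the 40 genes.

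**Figure D5:**
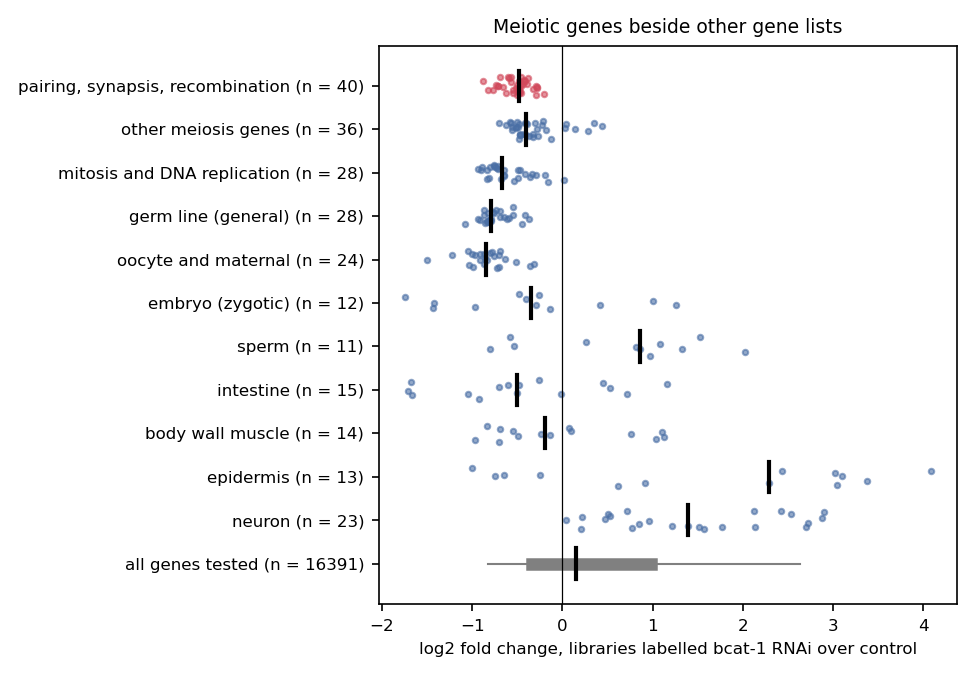
Log2 fold change, RNAi-labelled libraries over controls, of the 40 genes (red) and of 10 other gene lists (blue), 1 point per tested gene with a black bar at the median, above the central 50% (thick) and 90% (thin) of all tested genes. The meiotic genes, at a median of -0.48, lie between other meiosis genes at -0.40 and the mitosis, germ line and oocyte lists at -0.67 to -0.85, while the neuron list lies at 1.39. The list of other meiosis genes also holds genes of DNA repair by end joining.

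Markers of other tissues moved in the same comparison, where 36% of all tested genes were called higher and 25.6% lower. The shares called higher were 78.3% for neuron, 69.2% for epidermis, 26.7% for intestine, 28.6% for body wall muscle and 25% for embryo genes. Those called lower were 0%, 7.69%, 60%, 42.9% and 41.7% in the same order. Of 23 neuron genes found, 18 were higher and none lower, with a summed level of 794 to 890 CPM in the RNAi-labelled libraries and 467 to 497 CPM in the controls. Of 13 epidermis genes 9 were higher and 1 lower, with sums of 614 to 706 CPM in the RNAi-labelled libraries and 414 to 507 CPM in the controls. Of 15 intestine genes, led by the vitellogenins, 4 were higher and 9 lower, with sums of 21884 to 27375 CPM in the RNAi-labelled libraries and 44119 to 56652 CPM in the controls. Nearly all of each sum was vitellogenin RNA (vit-1 to vit-6, each called lower), so it says little of the other intestine genes. Of those, cpr-1, elt-2, ifb-2 and pept-1 were higher, act-5, erm-1 and spl-1 were lower, and ges-1 and asp-1 were not called. Of 14 body wall muscle genes 4 were higher and 6 lower, with sums of 1269 to 1629 CPM in the RNAi-labelled libraries and 1457 to 1682 CPM in the controls. No marker of these 4 tissues was at 0 in any library. Sperm genes were near 0 in both groups, at 17.1 to 23.03 CPM in the RNAi-labelled libraries and 13.3 to 15.4 CPM in the controls summed over 24 genes, and 9 of the 24 were at 0 in at least 1 library. Of the 11 sperm genes tested 4 were higher (36.4%, against 36% of all tested genes) and 1 lower. Of 12 tested genes listed as switched on in embryos 5 were lower and 3 higher. The 17 found summed to 250 to 273 CPM in the RNAi-labelled libraries and 338 to 381 CPM in the controls. In every library the largest part of this sum was pal-1, which was called lower (log2 fold change -0.49). It averaged 148.7 CPM in the RNAi-labelled libraries and 208.5 CPM in the controls, so the sum says little of the other embryo genes. Whether pal-1 RNA came from embryos or from the germ line was not tested. The part of tissue make-up in the falls of the meiotic genes was not tested.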

How the data were processed

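Total RNA of whole worms was made into TruSeq libraries, which do not record strand. The authors mapped single reads with TopHat2 2.0.6 to WBcel235 and let featureCounts count uniquely mapped reads for each gene. The version and strand setting of the counter: not given in the sources used here. The deposited counts were not normalised. The deposited RPKM values equal the count divided by exon length and library total for 100% of 28243 genes with reads, within 0.001 base of a whole length.

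The counts of 3 libraries labelled bcat-1 RNAi and 3 controls were filtered with filterByExpr, TMM-scaled (trimmed mean of M values) and compared by the two-sided quasi-likelihood test of edgeR 4.0.16 in R 4.3.3, the group being the only term. The Benjamini-Hochberg adjustment ran over 16391 genes, and adjusted p-values under 0.05 were called. CPM are TMM-scaled, and levels between genes were compared in RPKM. Within each group every pair of libraries differed beyond sampling noise (chi-square per degree of freedom at least 13.81).

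The 40 genes, their classes and the 10 other lists were chosen with earlier results of these data known. All 40 are named. Values per library are given for the highest and the most changed gene of each role, the 5 largest falls, set pairs of partners, and genes whose call depends on 1 library; spo-11 was added after its values were seen. Alternatives used DESeq2 1.42.0 and limma 3.58.1 (limma on log2 RPKM plus 1 or 0.1), other scalings and filters, and each library left out. Names and positions came from RefSeq and Ensembl 115. Exon overlaps between genes are those of Ensembl 115 and were not checked in the annotation that the authors counted. All count columns belonged to the 6 samples.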

Additional observations from a re-analysis of the deposited data

How the results depend on the processing

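Of 680 repeats (40 genes under 17 alternatives), 600 kept direction and side of the threshold, 74 lost the call and 3 gained it. Another 3, all of spo-11, moved to 0.05, 0.03 and 0.03 with no call, and no called gene changed sign. Of the 39 called genes, 22 were called in every one of these alternatives. Meiotic genes called lower numbered 39, and 24 with library size only, 24 with limma on log2(RPKM + 1), 24 with limma on log2(RPKM + 0.1) and 2 against a fold of 1.5 (sun-1 and dsb-1). They numbered 30 with upper quartile scaling and 40 with the size factors of DESeq2. Leaving out each library gave 33 to 40. None was called higher in any alternative. Their median log2 fold change was -0.48, and -0.60 with the size factors and with the test of DESeq2, -0.34 with upper quartile scaling, -0.23 with library size only, -0.23 and -0.24 with RPKM + 1 and + 0.1, and -0.55 to -0.43 with a library left out, while leaving out control replicate 1 and bcat-1 RNAi replicate 3 together gave -0.45 with 39 called. Over all genes, 4189 were called lower, and 1947 with library size only, 1934 and 1918 with limma on log2(RPKM + 1) and log2(RPKM + 0.1), and 557 against a fold of 1.5. That fold also cut the 5907 higher calls to 3604 and all 10096 calls to 4161. The lower share of calls was 41.5%, but 48.3% with DESeq2 size factors, 49.9% with the DESeq2 test, 30.7% with upper quartile scaling, 21% with library size only and 20.9% and 20.7% with RPKM. For bcat-1 the log2 fold change was 0.19 to 0.79 with a library left out, and 0.79 without bcat-1 RNAi replicate 2 was called, and 0.15 without control replicate 1 and bcat-1 RNAi replicate 3. The cause was not tested. No paired analysis was done because the labels give no replicate numbers shared between the groups. The sample titles carry running numbers that alternate between control and bcat-1, but they name no pairs. With 3 libraries a group, small falls such as those of rad-50, him-3 and com-1 are at the limit of what the test calls. The gene with the fewest reads (at least 276 per library), chk-2, had the largest SE (0.21), and its bcat-1 RNAi replicate 3 also deviated most (-0.81, log2). The part of depth was not tested.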
